A study of Danio rerio with 16 samples.

Results

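The zebrafish genome holds stretches of 5 kb or more in which nearly every CpG read was methylated in the fin, with a small unmethylated remainder. To find them, the genome was cut into tiles of 500 bp, and tiles with at least 50 calls (reads over CpGs) summed over 16 libraries were kept. A near fully methylated block is a run of at least 10 consecutive tiles in which each tile had a pooled methylation level of 90% or more. The rule gave 1507 blocks, made of 18707 of the 2332704 tiles with enough calls (0.802%), and they covered 9.35 Mb and 287235 of 23997221 CpGs (1.2%). Members were thus chosen by their pooled methylation level over all 16 libraries.

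Methylation was read by whole genome bisulfite sequencing (WGBS), in which unmethylated cytosines are converted and read as thymines. All fish were adults. Sorted cells came from fish carrying Tg(sp7:EGFP), in which regulatory regions of sp7, a transcription factor gene of osteoblasts, drive EGFP. The transgene thus marks differentiating and mature bone-forming cells. For whole fin the study's methods do not name the line. Whole caudal fin was collected before injury (0 days post-amputation, dpa). Regrown tissue, blastema together with wound epidermis, was collected 1, 2 and 4 dpa. EGFP-positive (sp7+) and EGFP-negative (sp7-) cells were sorted from uninjured fin at 0 dpa and from regenerate at 4 dpa. Each of the 8 groups had 2 libraries from pools of fish, and both cell types of 1 time and number may come from 1 pool. The sp7- fraction and the whole fin are mixtures, and sp7+ cells span differentiating and mature cells. In all of them a change of level within cells and a change in which cells were present cannot be told apart. Per the study's methods, uninjured fins were dissociated with TrypLE and then Liberase DL, and regenerates of 4 dpa with TrypLE alone. In sorted cells time and dissociation thus cannot be told apart. The 8 whole fin libraries held 117991918 to 153260623 calls (4.92× to 6.39× mean coverage) and the 8 sorted libraries 198736279 to 471925247 calls (8.28× to 19.7×).

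In vertebrates a methyl group is placed on most cytosines that precede a guanine, and the mark is copied to the new strand after each round of replication by Dnmt1, guided by Uhrf1 to half-methylated sites. Promoters rich in CpGs and active enhancers usually escape the mark, whereas gene bodies, repeats and transposons carry it. Methylated cytosines are prone to mutate to thymine, so that most methylated DNA is poor in CpGs.

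The blocks were short and scattered. Their median length was 5.5 kb, the middle range (quartiles) was 5 to 6.5 kb and the longest had 25 kb. The minimum of 10 tiles was met with none to spare by 466 blocks (30.9%), and 59 blocks had 20 tiles or more. At that threshold, 772 runs of 9 tiles fell just short, with an unmethylated remainder (unmethylated calls over all calls) of 6.0%, against 5.94% in the 466 runs of 10. High tiles were common outside blocks: 511858 tiles (21.9%) reached 90%, and 3.65% of those lay in a block.

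The level of the blocks was fixed by the rule and is given only as a description. Over the 1507 blocks the pooled remainder had a median of 5.45%, with quartiles of 4.73% and 6.27%, and it ran from 2.57% to 8.97%. A block was covered by a median of 1033.5 calls in a whole fin library and 2296.5 in a sorted library, and the lowest count of any block in any library was 14. Reads had no molecular identifiers, so these depths speak for counting error only.

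The blocks were nevertheless denser in CpGs than the rest of the genome. They held 15.4 CpGs per tile on average (median 12), against 12 (median 10) in the tiles of 90% or more outside blocks and 9.02 (median 7) in tiles under 90%. Tiles with 30 CpGs or more made up 12.4% of the block tiles and 2.08% of all tiles. The median gap between neighbouring CpGs was 16 bp in blocks, 18 bp in the other tiles of 90% or more and 27 bp in tiles under 90%. CpGs with no other CpG within 50 bp made up 5.90% in blocks and 13.0% in all tiles. The rule did not use density as such, but tiles with more CpGs reach 50 calls more easily. Each tile of a run must also hold a CpG, and a single low CpG weighs more in a tile of few. Runs of 1 tile at 90% or more held 10.7 CpGs per tile and runs of 10 held 15.3. How much of the density comes from the rule was not tested. Coverage was also higher, with 191 calls per CpG in blocks and 154 in all tiles, and its part in the density was not tested. These are values of a single genome, with no replicates and no test.

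The density declined toward the block edge and was level outside. Averaged over both edges of all blocks, tiles centred 2.25 kb inside held 16.3 CpGs and the last tile inside 13.1. Beyond the edge only tiles with 50 calls entered, so that the first tile outside was read at 2571 edges and held 10.1. From there to 9.75 kb outside the mean of such tiles stayed between 10.1 and 10.6. Outside, the remainder was 15.2% to 18.3%. Most edges were set by a tile that fell below the level: this was the case at 2571 edges (85.3%), and at 1269 edges (42.1%) the next tile was still between 85% and 90% methylated. Only 110 edges (3.65%) met a tile under 50%. A tile under 50 calls ended the run at 368 edges (12.2%) and a tile with no CpG at 75 (2.49%).

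**Figure D1:**
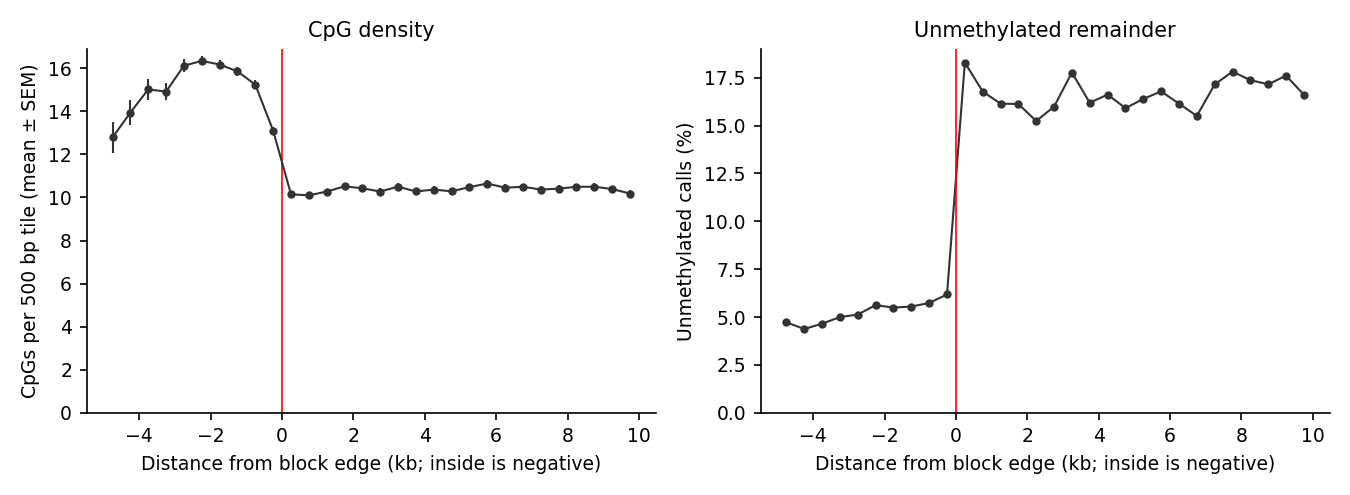
CpGs per 500 bp tile (left, mean ± SEM over tiles) and unmethylated calls in percent (right) against the distance from the block edge in kb, with the inside of blocks at negative distances, averaged over both edges of all 1507 blocks. CpG density falls from 16.3 per tile at 2.25 kb inside to 10.1 in the first tile outside and stays near that level; the step in the right panel is fixed by the rule, and the innermost points come from the longer blocks only.

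Judged by the spacing of CpGs, the blocks also held more sequence present in several copies, and its part in their density was not tested. No genome sequence of the build was used, so copies were sought in the spacing of CpGs: a string of 10 consecutive gaps that occurred again elsewhere counted as repeated. By that measure 39.6% of CpGs in blocks lay in a repeated string, against 24.4% in the other tiles of 90% or more and 13.3% in tiles under 90%. A string of 10 gaps spans less sequence where CpGs are dense, so copies are found more easily there. The part of this in the shares was not tested. At least 1 repeated string was held by 922 blocks (61.2%), 599 blocks (39.7%) shared a string with another block, and in 287 blocks repeated strings took up at least 50% of the CpGs. The most frequent string found in a block occurred 802 times in the genome.

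The densest blocks, in which a string spans the least sequence, were nearly all repeated by this measure. Of 187 blocks (12.4%) with 30 or more CpGs per tile, 176 had at least 50% of their CpGs in repeated strings, with a median of 96.3%. They occurred on all 25 chromosomes, at 2 to 13 per chromosome. Their median pooled remainder was 6.58% and their median coverage 123 calls per CpG. In contrast, the 395 blocks under 10 CpGs per tile had a median of 0% of CpGs in repeated strings, a remainder of 5.34% and 178 calls per CpG. The 826 blocks of 10 to 20 CpGs lay between them in repeats, with a median of 13.8% and a remainder of 5.27%. Across the 1507 blocks density and remainder had a correlation of 0.36, and length and remainder of -0.24; both are descriptions, over blocks that share libraries and in part sequence. Reads from near-identical copies can be placed at the wrong copy, and the level of such a block may be that of several places.

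Chromosomes differed in how much of them lay in blocks. Chromosome 19 had 1.24% of its tiles in blocks, chromosome 20 had 1.22%, chromosome 12 had 1.15% and chromosome 22 had 1.13%. Chromosome 6 had the lowest share, 0.421%, followed by chromosome 11 with 0.470% and chromosome 4 with 0.507%. Chromosome 20 held 93 blocks, the most, and chromosome 11 held 31, the fewest. Split at its midpoint, chromosome 4 had a share of 0.427% on the side of low coordinates and 0.607% on the other, which is known for its repeats. Blocks were somewhat more frequent toward chromosome ends, with 0.943% of tiles within 1 Mb of an end, 1.05% from 1 to 5 Mb and 0.737% beyond 10 Mb. Tiles of 90% or more had the same order there, at 24.4%, 25.2% and 20.7%. Neighbouring blocks stood a median of 316.75 kb apart, and 175 of the 1482 neighbouring pairs (11.8%) were within 10 kb. Of these, 24 pairs were separated by a single tile.

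**Figure D2:**
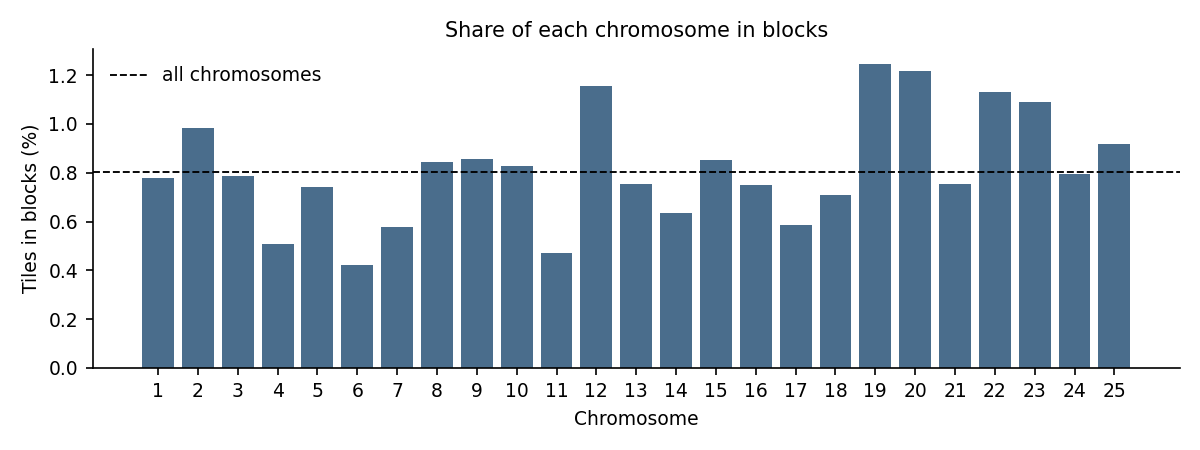
Share of tiles with 50 calls that lie in blocks, in percent, for each of the 25 chromosomes, with the dashed line at the 0.802% of all chromosomes. Chromosomes 19, 20, 12 and 22 stand highest, at 1.13% to 1.24%, and chromosome 6 lowest, at 0.421%.

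The longest block shows what these regions look like. It lay on chromosome 2 from 3033091 to 3057952 in GRCz10 and held 556 CpGs in 50 tiles, of which 13.8% were in repeated strings, with a pooled remainder of 4.31%. In sp7+ cells 3.59% and 3.83% of its calls were unmethylated at 0 dpa and 4.52% and 4.14% at 4 dpa. In sp7- cells the values were 3.43% and 3.64% at 0 dpa and 4.73% and 5.98% at 4 dpa. Both libraries of 4 dpa lay above both of 0 dpa in each cell type. In whole fin its remainder was 3.22% and 4.42% before injury (0 dpa), 3.43% and 4.67% at 1 dpa, 5.02% with 5.43% at 2 dpa, then 5.43% and 5.16% by 4 dpa. Here the libraries of 0 and 1 dpa overlapped, and those of 2 and 4 dpa stood above them.

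Other long blocks were alike in their small remainder. On chromosome 1 (27120018 to 27138822), a block of 19 kb with 522 CpGs had 2.47% and 2.59% unmethylated calls in uninjured sp7+ cells and 4.24% and 3.55% in those of 4 dpa. Its sp7- values were 3.31% and 3.43%, then 4.39% and 5.11%, and the times did not overlap in either cell type. On chromosome 9 (16046111 to 16064844), 508 CpGs over 19 kb had 3.14% and 2.76% in uninjured sp7+ cells and 4.49% and 4.32% in those of 4 dpa, and in sp7- cells 3.73% and 3.92%, then 5.1% and 5.58%. This block, too, had separate times. A block of 17.5 kb on chromosome 3 (61042015 to 61059407) had 2.92% and 2.45% in uninjured sp7+ cells and 3.76% and 3.54% in those of 4 dpa. Its sp7- values of 3.65% and 2.85%, then 3.87% and 3.72%, were apart by less than the spread between the replicates of 0 dpa. The fifth in length, 16 kb on chromosome 9 (3095500 to 3111473), had 3.19% and 3.53% in sp7+ cells at 0 dpa, 4.28% and 3.81% at 4 dpa, and the highest whole fin values of the 5, at 5.20% and 5.97% at 0 dpa and 7.12% and 6.75% at 4 dpa. Its libraries of 0 and 4 dpa were apart in sorted cells and in whole fin.

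Both ends of the range of levels lay in short blocks. The block of lowest pooled remainder, 2.57%, lay on chromosome 22 (531032 to 536490), with 250 CpGs, none of them in a repeated string. Its remainder was 2.76% and 2.22% at 0 dpa and 2.58% and 2.51% at 4 dpa in sp7+ cells, and 2.5% and 2.46% at 0 dpa and 2.63% and 2.71% at 4 dpa in whole fin. In sp7+ cells its 2 times overlapped, unlike those of the long blocks. The block of highest remainder, 8.97%, lay on chromosome 1 (52807005 to 52811992), had 34.7 CpGs per tile, and 97.1% of its CpGs were in repeated strings. In sp7+ cells its remainder was 7.07% and 4.94% at 0 dpa and 10.6% and 11.4% at 4 dpa, and in sp7- cells 7.68% and 9.12%, then 9.16% and 13.7%. These replicates lay up to several points apart, at only 77.5 calls per CpG over all libraries.

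The remainder of the blocks was then followed over time. Summed over all 1507 blocks, the unmethylated calls in sp7+ cells were 4.57% and 4.40% at 0 dpa and 5.84% and 5.67% at 4 dpa. In sp7- cells they were 5.11% and 4.93% at 0 dpa and 6.10% and 6.48% at 4 dpa. In both cell types the libraries of 4 dpa lay above those of 0 dpa without overlap. In whole fin they were 5.44% and 5.52% before injury (0 dpa), 5.43% and 5.66% at 1 dpa, 6.18% with 6.02% at 2 dpa, then 6.59% and 6.44% by 4 dpa. The libraries of 0 and 1 dpa overlapped, and those of 2 and 4 dpa followed above them in order, with no overlap. The mean difference of 4 and 0 dpa was 1.27 percentage points (points) in sp7+ cells, 1.27 in sp7- cells and 1.03 in whole fin, which made the small remainder larger by 28.4%, 25.4% and 18.8%.

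**Figure D3:**
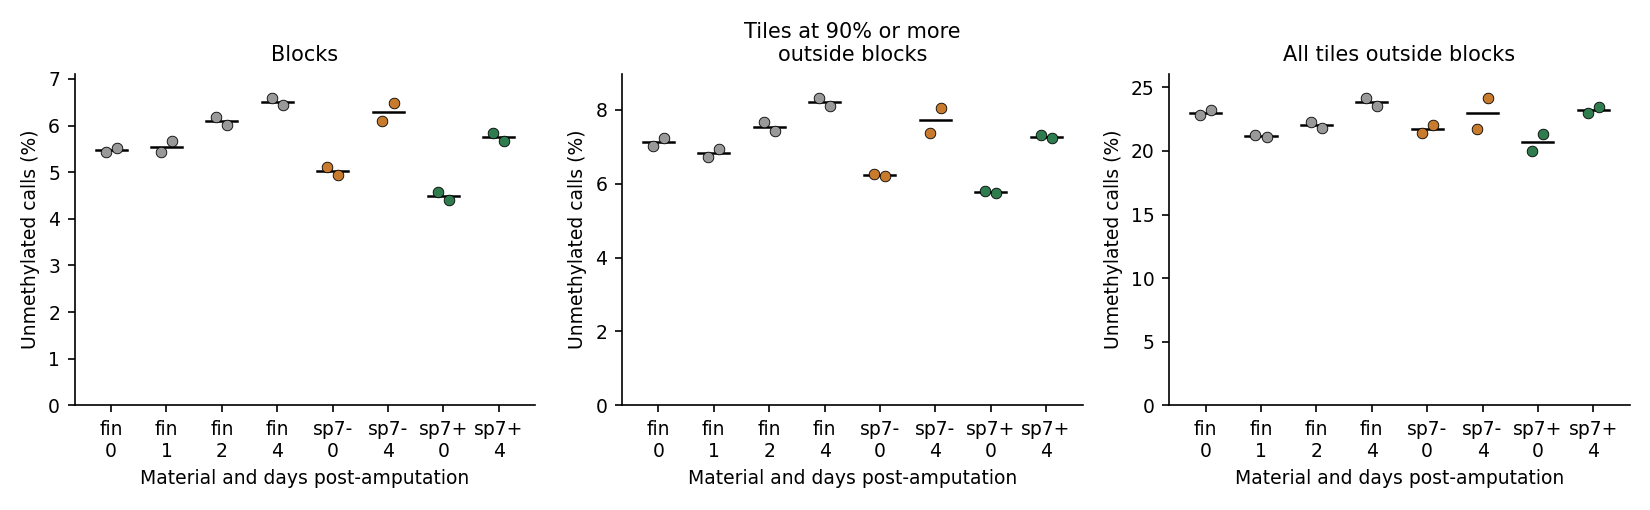
Unmethylated calls in percent in each of the 16 libraries (points; replicate 1 left, replicate 2 right) with the mean of each group (line), for the blocks, for tiles of 90% or more outside blocks, and for all tiles outside blocks; each panel has its own axis from 0. In blocks the 4 dpa libraries of sp7+ (5.84% and 5.67%) and sp7- cells (6.10% and 6.48%) lie above those of 0 dpa, and whole fin climbs from 5.44% and 5.52% at 0 dpa to 6.59% and 6.44% at 4 dpa. In all other tiles 1 dpa is the lowest of the whole fin times.

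Because these libraries had helped to choose the blocks, the tests were run on blocks chosen without the libraries tested. The same rule applied to the 8 whole fin libraries alone gave 871 blocks (75.7% of their tiles lay in the 1507 blocks, and 42.9% of the block tiles were among them), in which the sorted cells were compared. In these, the remainder was 4.48% ± 0.102 at 0 dpa and 5.74% ± 0.134 at 4 dpa in sp7+ cells, and 5.0% ± 0.124 and 6.28% ± 0.253 in sp7- cells (SD, n = 2 each). With both cell types joined, the remainder rose by 1.27 points from 0 to 4 dpa, with all 4 libraries of 4 dpa above those of 0 dpa of their own cell type (two-sided exact permutation p = 0.0286, the smallest that 4 against 4 libraries allow). Both cell types of 1 time and number may come from 1 pool, so the 4 libraries of a time may not be independent. Permuted within replicate number, as a replicate block, this rise no longer passed (exact permutation p = 0.0556, the smallest that 36 splits allow). The remainder of sp7+ cells was 0.52 points below that of sp7- cells at 0 dpa and 0.54 below at 4 dpa (-0.523 and -0.536), larger than the SD of either group. At each time both sp7+ libraries lay below both sp7- libraries. The comparison of cell types over both times gave -0.530 points with an exact permutation p of 0.371, which did not pass. Its splits did not keep the times apart, so the larger difference between times entered its spread. That test thus cannot show that the cell types were alike.

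Whole fin was compared in the 1497 blocks that the rule gave from the 8 sorted libraries alone (82.4% of their tiles lay in the 1507 blocks, and 81.4% of the block tiles were among them). The remainder was 5.64% ± 0.0769 in uninjured fin, 5.69% ± 0.159 at 1 dpa, 6.26% ± 0.132 at 2 dpa, then 6.67% ± 0.101 by 4 dpa (SD, n = 2 each). The 4 time points differed, with 1.03 points between the highest and lowest mean (exact permutation p = 0.0286 over 105 ways to form 4 pairs). The 3 later times together lay 0.57 points above 0 dpa, which did not pass (two-sided exact permutation p = 0.179; smallest possible 0.0357). The values at 0 and 1 dpa were within the spread between replicates, and those at 2 and 4 dpa stood above them by more than it.

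How particular this was to blocks depended on what they were set beside. In tiles of 90% or more outside the blocks, sorted cells rose by 1.51 points (exact permutation p = 0.0286), and the log2 ratio of the block remainder to that of these tiles changed by only 0.03 (exact permutation p = 0.257). A difference between the blocks and these highly methylated tiles over time thus did not pass in sorted cells. Its splits did not keep the cell types apart, so their larger difference in this ratio entered its spread. That test thus cannot show that blocks and these tiles moved alike. In percent of the value at 0 dpa, blocks rose by 28.4% and these tiles by 26.2% in sp7+ cells. In sp7- cells they rose by 25.4% and 23.9%. Between the cell types the same log2 ratio differed by -0.05 (exact permutation p = 0.0286), lower in sp7+ cells. In whole fin it was 0.06 higher at the later times together than at 0 dpa (exact permutation p = 0.0357, the smallest possible). Over the whole fin time points it spanned 0.08 (exact permutation p = 0.0286).

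Set beside all other tiles, the blocks moved otherwise. There the unmethylated calls of whole fin were 22.9% and 23.2% before injury (0 dpa), 21.3% and 21.1% at 1 dpa, 22.3% with 21.8% at 2 dpa, then 24.2% and 23.5% by 4 dpa. The value of 1 dpa was lower than that of 0 dpa by more than the spread, at -1.86 points, a dip that the blocks (0.0667 points) did not show. In sorted cells the other tiles differed by 1.89 points between 4 and 0 dpa, which missed the threshold (exact permutation p = 0.0571). Relative to the size of the remainder, the blocks changed more in sorted cells. There the log2 ratio of blocks to all other tiles was 0.22 higher at 4 dpa (exact permutation p = 0.0286). In whole fin this ratio was 0.18 higher at the later times together (exact permutation p = 0.0357), in part because the other tiles fell. Against 0 dpa the other tiles differed by -8.07% at 1 dpa, -4.20% at 2 dpa and 3.58% at 4 dpa. The blocks differed by 1.22%, 11.3% and 18.8%. In points the difference between 4 and 0 dpa in other tiles and in blocks was 2.54 against 1.27 in sp7+ cells, 1.25 against 1.27 in sp7- cells and 0.825 against 1.03 in whole fin.

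Tiles with almost no methylation were read as a gauge of conversion, since a cytosine left unconverted counts as methylated. They cannot show methylated cytosines that were read as unmethylated, which would add to the remainder of the blocks. In tiles with a pooled level under 5%, methylated calls were 1.27% to 1.62% over the 16 libraries. In sp7- cells they were 1.32% and 1.27% at 0 dpa and 1.62% and 1.54% at 4 dpa, without overlap, and in sp7+ cells 1.45% and 1.38% in uninjured fin, 1.45% and 1.34% by 4 dpa. Both cell types joined were 0.136 points higher at 4 dpa (exact permutation p = 0.114), and whole fin spanned 0.0648 points over its times (exact permutation p = 0.190). Unlike the held-out blocks, these tiles were chosen with the libraries tested among the 16, so these tests are not independent of the choice. Conversion rates per library are not given in the sources used here, and their part in the remainder was not tested further.

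The change was spread over the blocks and did not sit in a few. In sp7+ cells the mean remainder was higher at 4 than at 0 dpa in 1457 of 1507 blocks (96.7%). Over all segments (blocks and other runs of 5 to 10 tiles) the share was 83.4%. Both libraries of 4 dpa lay above both of 0 dpa in 1171 blocks (77.7%), beside 54.3% of all segments, and both lay below in 8, beside 4.81% of all segments. In sp7- cells 94.9% of blocks were higher, beside 74.8% of all segments. In 1138 (75.5%) both libraries lay above both, beside 38.5% of all segments, and in 10 both lay below, beside 7.14%. The median difference was 1.24 points in sp7+ and 1.29 points in sp7- cells, beside 2.14 and 1.51 points over all segments. Blocks had 10 tiles or more and the other segments 5 to 10. Blocks were also denser in CpGs and more deeply covered, and the part of all this in the shares was not tested. Among tiles of 500 bp, 76.2% of block tiles were higher in sp7+ cells, beside 67.4% of all tiles. In sp7- cells 74.0% were higher, beside 64.3%. Replicates of 0 dpa differed by a median of -0.08 points in sp7+ and -0.11 points in sp7- cells, and those of sp7- cells at 4 dpa by 0.42 points.

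Whole fin was read at more times. At 1 dpa 51.8% of 1505 blocks were higher than at 0 dpa, beside 24.6% of all segments. The median difference was 0.03 points, beside -1.81 points over all segments. Both libraries lay above both of 0 dpa in 288 blocks (19.1%), beside 6.85% of all segments, and below in 249 (16.5%), beside 40.5%. By 2 dpa 72.9% of blocks were higher, beside 37.7% of all segments, with a median of 0.55 points, beside -0.804. In 556 blocks (36.9%) both libraries lay above both, beside 12.2%, while 112 had both below, beside 26.6%. At 4 dpa 85.8% of blocks were higher, beside 64.2% of all segments, with a median of 1.04 points, beside 0.921. In 821 blocks (54.6%) both lay above both, beside 28.5%, while 38 had both below, beside 10.6%. Among tiles of 500 bp, 50.4%, 58.8% and 65.1% of block tiles were higher at 1, 2 and 4 dpa. The shares of all tiles were 37.8%, 45.6% and 57.5%.

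**Figure D4:**
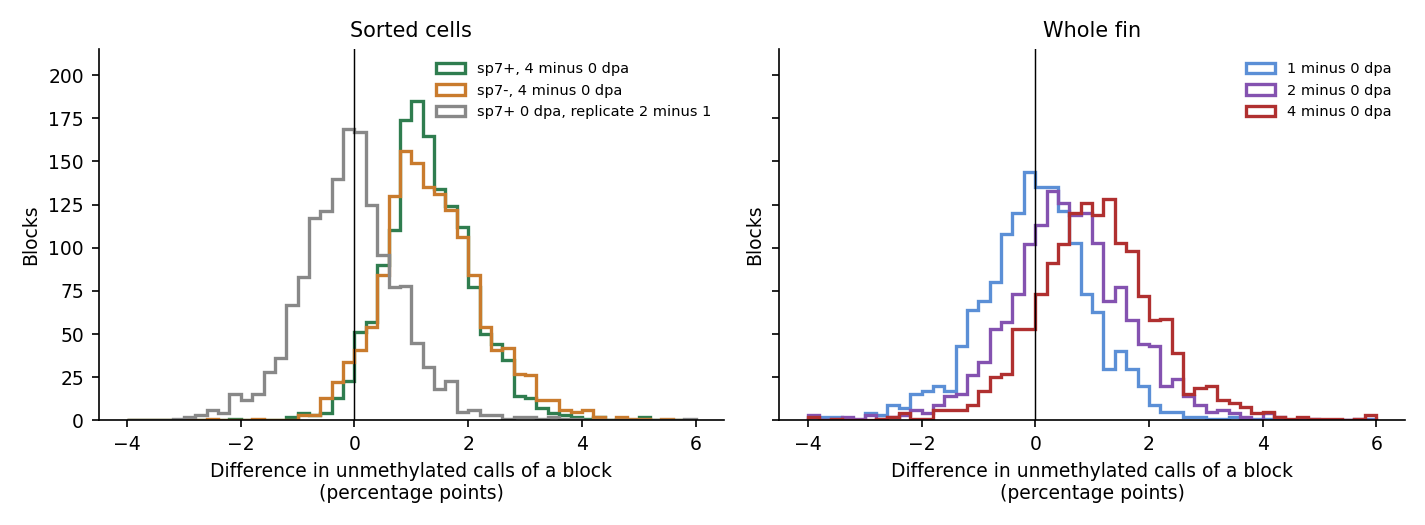
Number of blocks (vertical axis) by their difference in unmethylated calls in percentage points (bins of 0.2), for sorted cells (left; 4 minus 0 dpa in sp7+ and sp7- cells, and replicate 2 minus 1 of sp7+ cells at 0 dpa) and whole fin (right; 1, 2 and 4 minus 0 dpa), with differences beyond the axis drawn in the outermost bin. The 4 minus 0 dpa curves of both cell types are shifted as a whole to medians of 1.24 and 1.29 points while the replicate curve centres near 0, and in whole fin the curve moves from 0.03 points at 1 dpa to 0.55 at 2 dpa and 1.04 at 4 dpa.

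Nor was the change tied to a chromosome. Taken per chromosome, the blocks had a higher remainder at 4 than at 0 dpa on 25 of 25 in sp7+ cells (by 0.910 to 1.63 points), sp7- cells (1.06 to 1.49) and whole fin (0.809 to 1.32), with both libraries above both each time. At 2 dpa whole fin was also higher on 25 of 25, by 0.291 to 0.919 points. At 1 dpa it was higher on 16 of 25, and the differences ran from -0.174 to 0.291 points.

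The change was also set out by CpG density. Blocks under 10 CpGs per tile had a mean difference between 4 and 0 dpa of 1.37 points in sp7+ cells, 1.59 in sp7- cells and 1.21 in whole fin. In the 187 blocks of 30 or more CpGs it was 1.35 points in sp7+ cells, 0.973 in sp7- cells and 0.766 in whole fin. The change of sp7+ cells was thus nearly the same at both ends, whereas those of sp7- cells and whole fin were smaller in the dense, repeated blocks. These values are a description of the chosen blocks, and the difference between classes was not tested. Without every block that held a repeated string, the held-out blocks numbered 327 and 586. In these, sorted cells still rose by 1.29 points (exact permutation p = 0.0286), and the whole fin times still differed, by up to 1.21 points (exact permutation p = 0.0286).

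Most of the remainder came from CpGs that were each a little short of full methylation, but CpGs of lower level gave more than their share. Of 259419 CpGs with 16 or more calls, 283 (0.109%), in 189 blocks, had a pooled level under 25%, and these contributed 0.927% of the unmethylated calls. A further 1.5% of CpGs lay between 25% and 75% and gave 8.22% of the unmethylated calls. CpGs at 75% to 90% were 10.8% of the CpGs and gave 22.5%, and those at 90% to 95% were 28.7% and gave 35.0%. Those at 95% or more, which were 59.0% of the CpGs, gave 33.4%. Leaving out the CpGs under 25% left the rise of sorted cells in the held-out blocks at 1.27 points (exact permutation p = 0.0286). Among CpGs at 95% or more the mean difference between 4 and 0 dpa was 0.814 points in sp7+ cells, 0.901 in sp7- cells and 0.777 in whole fin, given as a description because the pooled level chose them.

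Isolated CpGs lost more than crowded ones. Over the held-out blocks, CpGs whose nearest CpG was 2 to 5 bp away had a remainder of 4.18% ± 0.125 at 0 dpa and 5.16% ± 0.153 at 4 dpa in sp7+ cells, and 4.57% ± 0.113 and 5.59% ± 0.195 in sp7- cells (SD, n = 2 each). Between 4 and 0 dpa, CpGs with no neighbour within 50 bp differed by 2.15 points in sp7+ and 2.62 points in sp7- cells, which was 39.8% and 42.2% of their value at 0 dpa, against 23.3% and 22.2% for the crowded CpGs. The gap in remainder between the isolated and the crowded CpGs widened by 1.39 points in sorted cells (exact permutation p = 0.0286), and their log2 ratio rose by 0.20 (exact permutation p = 0.0286). In whole fin the gap differed among the 4 times by up to 1.37 points (exact permutation p = 0.0286), and the log2 ratio by up to 0.17 (exact permutation p = 0.00952, the smallest possible). The 3 later times together against 0 dpa did not pass, at 0.684 points (exact permutation p = 0.25). The 2 classes of spacing were chosen after their values had been seen.

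The same classes were read outside the blocks. In all other tiles the remainder of crowded CpGs differed between 4 and 0 dpa by 2.36 points in sp7+ cells (11.9%) and 0.796 points in sp7- cells (3.77%), and that of isolated CpGs by 2.96 points (11.2%) and 2.43 points (9.01%). In whole fin at 4 dpa the values were 2.96% for crowded and 4.98% for isolated CpGs. In percent of their own value, isolated CpGs thus had the larger difference outside blocks in sp7- cells and whole fin but not in sp7+ cells. Whether blocks and other tiles differed in this was not tested.

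**Figure D5:**
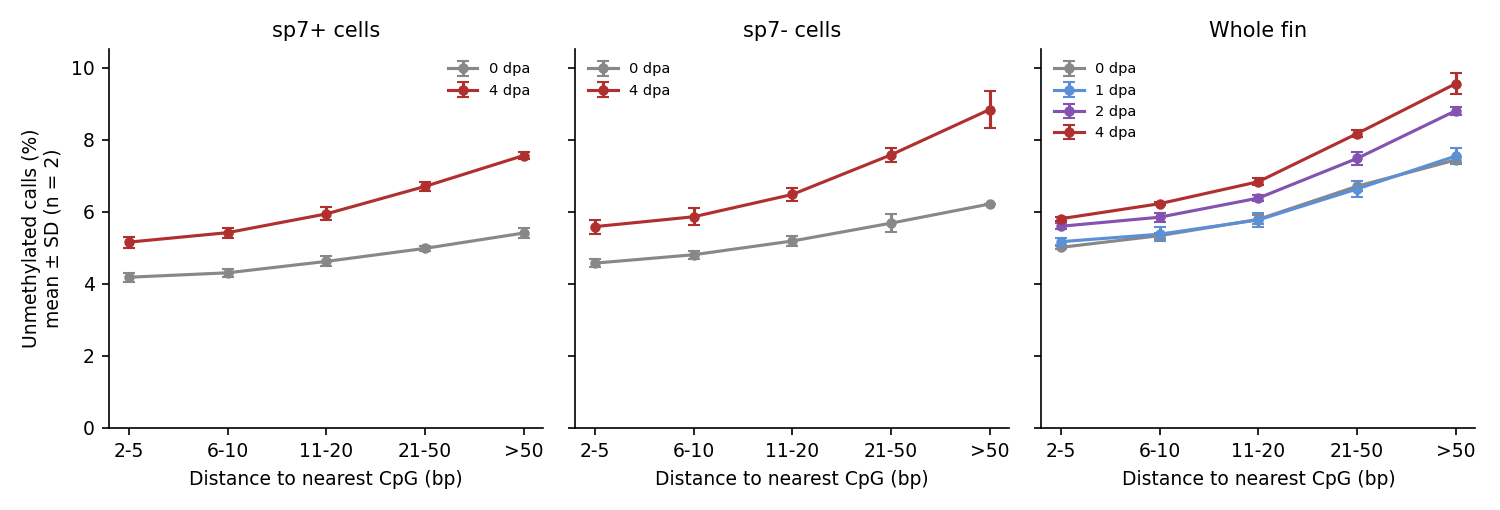
Unmethylated calls in percent (mean ± SD, n = 2 libraries) in the held-out blocks against the distance of a CpG to its nearest CpG in bp, by days post-amputation, for sp7+ cells, sp7- cells and whole fin. The 4 dpa lines lie above those of 0 dpa at every spacing and diverge with distance, from differences of 0.974 points in sp7+ and 1.01 points in sp7- cells at 2 to 5 bp to 2.15 and 2.62 points over 50 bp. Whole fin at 1 dpa differs from 0 dpa by 0.157 points at 2 to 5 bp and by -0.0747 points at 21 to 50 bp, the extremes over the spacings.

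Finally, each block was tested by itself with limma beside all other segments of the genome, with p-values adjusted over 230993 segments in sorted cells and 229996 in whole fin. The blocks had been chosen by their pooled level in the same libraries, so these calls are not independent of the choice. Among blocks chosen without the libraries tested, 4 of 871 were called in sp7+ cells (0.459%, beside 0.291% of all segments). In sp7- cells 2 of 871 were called (0.230%, beside 0.0844%), and in whole fin at 4 dpa 0 of 1494 (beside 0.00956%). Between 4 and 0 dpa 6 of 1507 blocks (0.271% of all segments were called higher) rose in remainder in sp7+ cells and 3 (background 0.0675%) in sp7- cells. In whole fin 1 of 1505 blocks rose at 4 dpa (background 0.00783%). At 1 and 2 dpa 0 blocks were called higher by limma (background 0.00304% and 0.000435%), with 50 (3.32%, beside 14.8% of all segments) and 150 (9.97%, beside 9.07%) at an unadjusted p under 0.05 in either direction. None of these 5 comparisons called a block lower, where the background was 0.026% in sp7+ cells, 0.0152% in sp7- cells, and 0.0183%, 0.00783% and 0.00174% in whole fin at 1, 2 and 4 dpa. For the interaction of cell type and time 0 blocks were called by limma, with 18 (1.19%, beside 3.9% of all segments) at an unadjusted p under 0.05 and a smallest adjusted p of 0.271 over all segments. At an unadjusted limma p under 0.05 there were 548 blocks in sp7+ cells (36.4%, beside 21.8% of all segments). In sp7- cells there were 530 (35.2%, beside 15.8%) and in whole fin at 4 dpa 279 (18.5%, beside 9.12%). Blocks had 10 tiles or more and the other segments 5 to 10, and blocks were denser in CpGs and more deeply covered. The part of this in these shares was not tested. Among tiles of 500 bp, 9.43% of block tiles had such a p in sp7+ cells, beside 9.99% of all tiles. The shares were 11.05% and 10.39% in sp7- cells, and 6.39% and 6.02% in whole fin at 4 dpa. In tiles of equal length blocks thus had little or no excess. Changes of the size seen in blocks may be at the edge of what 2 libraries a group can show for 1 block. On simulated counts the sp7+ test called 0% of blocks whose remainder was multiplied by 1.3, 6% of those by 1.6 and 54% of those by 2. There 50 blocks per size were changed, all other segments had no change and the spread between libraries was set in advance. In the data most segments rose in sp7+ cells, so these rates need not hold for the real fit.

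The called blocks had many CpGs and deep coverage. In sp7+ cells the 3 with the smallest p lay on chromosomes 20, 18 and 15. The first (53772512 to 53778398 on chromosome 20, 214 CpGs) had 3.54% and 3.34% at 0 dpa and 6.84% and 6.07% at 4 dpa, a difference of 3.01 points (limma adjusted p = 0.0364). The second (31482533 to 31494993 on chromosome 18, 454 CpGs) went from 2.76% and 3.36% to 4.97% and 5.37%, a difference of 2.11 points (limma adjusted p = 0.0409). The one on chromosome 15 (11324025 to 11329986, 289 CpGs) had 4.76% and 4.82%, then 7.28% and 8.12%, a difference of 2.90 points (limma adjusted p = 0.0423). Each had its 4 dpa libraries above those of 0 dpa in sp7- cells as well, where the first had 4.69% and 4.69% at 0 dpa and 7.41% and 8.04% at 4 dpa.

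The 3 blocks called in sp7- cells lay near each other on chromosome 20, between 13311582 and 13398481, where another block, between the first and the second of them, was not called. The first (13311582 to 13321943, 308 CpGs) had 3.52% and 3.65% at 0 dpa and 6.16% and 7.14% at 4 dpa, a difference of 3.07 points (limma adjusted p = 0.0393). The second (13364008 to 13372400, 390 CpGs) had 4.00% and 3.74%, then 6.09% and 6.54%, a difference of 2.44 points (limma adjusted p = 0.0425). The last (13385641 to 13398481, 486 CpGs) had 3.29% and 3.51%, then 5.73% and 5.55%, a difference of 2.24 points (limma adjusted p = 0.0335). In sp7+ cells the times were apart there, too, at 2.25% and 2.44% against 4.24% and 3.74% in the first of them. All 3 had deep coverage, at 252 to 331 calls per CpG over all libraries.

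The block called in whole fin, where no block chosen without these libraries was called, lay on chromosome 2 (13382061 to 13390481, 268 CpGs). Its remainder was 5.23% and 4.34% before injury (0 dpa), 6.16% and 6.72% at 1 dpa, 6.83% with 7.77% at 2 dpa, then 8.86% and 8.24% by 4 dpa, a difference of 3.77 points between 4 and 0 dpa (limma adjusted p = 0.0328). Here 1 dpa already stood above 0 dpa, unlike in most blocks. Calls of single blocks hung on single libraries and on the scale. Relative to the median segment of the genome, which also moved, 0 blocks were called by limma in each comparison. Without replicate 1 of sp7- cells at 4 dpa, 96 blocks were called in sp7+ cells (6.37%, beside 2.94% of all segments) and 74 in sp7- cells (4.91%, beside 2.55%). Without replicate 2 of that group 92 (6.1%, beside 2.85%) and 0 were called. Leaving out any other sorted library left 0 in both cell types. In whole fin, too, the calls changed with the library left out. The difference of the block on chromosome 2 was 3.32 to 4.21 points without single libraries.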

How the data were processed

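Per the labels and the study's methods, the authors trimmed WGBS reads with Trim Galore 0.4.1, mapped them with Bismark 0.16.1 and bowtie2 to GRCz10 altered at the strain's variants, removed duplicates and left out CpGs that a variant disrupts. They deposited, per CpG and library, the count of reads and the count of methylated reads, not normalized, and all 16 libraries listed the same 23997221 CpGs. Whether positions count from 0 or 1 was not settled. No annotation of this build was at hand, so no gene is named.

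Tiles, blocks and remainders were computed in Python 3.11.15 (numpy 2.4.6, pandas 2.3.3) from summed counts. Libraries were compared by exact permutation tests, joined across cell type or time because 2 against 2 cannot reach a low p. Blocks and other runs of 5 to 10 tiles with 20 calls in every library were fitted with limma 3.58.1 (R 4.3.3) on the arcsine square root of the level, with Benjamini-Hochberg adjustment over all segments and calls under 0.05. Sorted and whole fin libraries were fitted apart. The fit was tested on simulated data. Named blocks are the 5 longest, those of lowest and highest remainder and up to 3 called per contrast and direction. Replicates are pools of fish, and the limma p-values rest on the spread between pools of a group. In the permutation tests that joined groups, the spread also holds the differences between the groups joined. Members and tests were chosen with earlier results of these data known. Alternatives changed the level, calls, length, bridging, coverage and CpGs of blocks, the scale, weights and block of the fit, and left out each library.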

Additional observations from a re-analysis of the deposited data

How the results depend on the processing

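The number of blocks followed the rule: 3294 at a level of 88%, 517 at 92%, 59 with 20 tiles or more, 5888 with tiles of 1 kb, 129 with a limit on calls per tile and 983 with a limit on calls per CpG, which was chosen after seeing the data. It was 1278 with 100 calls per tile. Over 16 other settings that kept the unit the rise of sorted cells stayed past the threshold. Without single libraries it was between 1.12 and 1.39 points (exact permutation p = 0.0286 each). With permutation within replicate number (a replicate block) the rise of 1.27 points had p = 0.0556, the smallest of an exact permutation over 36 splits. The difference of cell types was -0.772 to -0.258 points without single libraries and never passed, in splits that did not keep the times apart. For the 3 later whole fin times the range was 0.461 to 0.694 points without single libraries, and the difference passed as a ratio to all other tiles (log2 ratio 0.18) or to the tiles of 90% or more outside blocks (log2 ratio 0.06). The span of the 4 whole fin times was 0.961 to 1.1 points without single libraries (exact permutation p = 0.0190 to 0.0381).

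Counts of single blocks called depended on the fit. In sp7+, sp7- cells and whole fin at 4 dpa, 164, 80 and 1 were called with a replicate block, 100, 4 and 1 with weights for coverage, and 259, 76 and 2 on the logit scale. The shares of blocks and of all segments called in sp7+ cells were 10.9% and 6.56% with the replicate block, 6.64% and 3.12% with weights and 17.2% and 2.97% on the logit scale, and in sp7- cells 5.31% and 2.08%, 0.265% and 0.1%, then 5.04% and 0.488%. Centring on the median segment left 0, 0 and 0. A minimum difference of 5 points also left 0, 0 and 0. The upper quartile of the block differences was only 1.77, 1.90 and 1.69 points, so that minimum cannot show how stable the calls were. Centring took the median of each library away on the arcsine square root scale, so the shift in points differed with the level. Over all segments the difference between 4 and 0 dpa had a median of 2.14 points in sp7+ cells and 1.51 in sp7- cells. Held-out blocks gave 4, 2 and 0 calls, shares of 0.459%, 0.230% and 0%, beside 0.291%, 0.0844% and 0.00956% of all segments. Tiles of 500 bp gave 3, 3 and 0 block tiles, shares of 0.0178%, 0.0178% and 0%, beside 0.127%, 0.132% and 0% of all tiles. In sorted cells block tiles were thus called less often than all tiles. Leaving out single libraries gave 0 to 96 in sp7+ cells, 0 to 74 in sp7- cells, 0 to 2 in whole fin at 1 and at 2 dpa and 0 to 3 at 4 dpa. The interaction had 0 under every fit. Where no cause is given, the cause was not tested. Deviations of same-numbered sorted libraries from their group means had correlations of 0.124 to 0.278 over segments, and those of whole fin -0.01 to 0.02, with only 2 numbers in each.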
